A study of Homo sapiens with 4 samples.

Results

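The genes described here are 10 splicing regulators, the SR proteins SRSF1, SRSF2, SRSF3, SRSF4, SRSF5, SRSF6, SRSF7 and SRSF11 and the SR-like proteins TRA2A and TRA2B. They were taken by name from the Ensembl gene identifiers of the junction tables, 10 of 35224 genes, and they hold 141 of the 350863 listed junctions, of which 102 had a read in at least 1 cell line. Ribosome profiling, which sequences the mRNA fragments (footprints) that ribosomes shield from nuclease, was applied to 2 samples of K562, established from a chronic myelogenous leukemia and erythroid in character, and 2 samples of HepG2, established from a tumor of the liver. Cells were lysed with cycloheximide, an inhibitor that holds ribosomes in place, the lysates were footprinted with RNase I, and fragments of footprint size were depleted of ribosomal RNA. The labels give neither line a genetic change or a treatment of its own. The counts are footprints that cross a splice junction, pooled over the samples of a line, so no difference below has a replicate check. Intervals are exact 95% binomial intervals and express counting error alone.

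SR proteins bind exonic enhancer sequences through RNA recognition motifs and recruit the splicing machinery through domains rich in arginine and serine. Many of their own genes contain a poison exon, an alternative exon that brings a premature stop codon into the reading frame. Transcripts with such an exon are known targets of nonsense-mediated decay, which begins when a ribosome terminates upstream of a splice junction, and SR proteins are known to limit their own levels by promoting this splicing. A ribosome that translates such a transcript crosses the junction into the poison exon (entry), meets the stop, and would not be expected at the junction out of it (exit). A ribosome on the productive mRNA crosses the junction that joins the same upstream exon to the next coding exon (skipping).

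A poison exon was defined as an internal exon of an annotated transcript that overlaps no coding sequence of a protein_coding transcript, with flanking splice sites joined directly by an intron of a protein_coding transcript. This rule gave 16 entry junctions in 7 of the 10 genes. A second rule, chosen after the values were seen, took runs of 1 or more exons that bring an in-frame stop after a coding donor, and added a poison exon of TRA2B and a run of 3 exons of SRSF4. The TRA2B exon also met a wider rule, an in-frame stop or frame shift without the condition on coding sequence. In all, 18 entry junctions in 8 genes were examined, and 15 of them lead to an in-frame stop. SRSF1 and SRSF5 had no such exon by either rule.

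The exons with 5 or more entry reads are shown with the frame that leads to their stop, read 5′ to 3′ on the coding strand of GENCODE release 29 transcripts (GRCh38). Each line starts with the last 15 bases of the upstream exon, the bases after these belong to the poison exon, and capitals mark the premature stop codon. The exon parts lie at chr20:43459153-43459304 for SRSF6 (plus strand), chr6:36599821-36599854 for SRSF3 (plus), chr2:38749319-38749346 for SRSF7 (minus) and chr1:70231859-70231908 for SRSF11 (plus). Those of the TRA2 genes lie at chr3:185931772-185931852 for TRA2B (minus), chr7:23531268-23531270 for the shorter TRA2A exon (minus) and chr7:23522418-23522432 for the longer TRA2A exon (minus). Both TRA2A exons also belong to the 5′ untranslated region of other transcripts. The longer one is shown only at its start, without its stop, and the SRSF4 run is not shown.
SRSF6: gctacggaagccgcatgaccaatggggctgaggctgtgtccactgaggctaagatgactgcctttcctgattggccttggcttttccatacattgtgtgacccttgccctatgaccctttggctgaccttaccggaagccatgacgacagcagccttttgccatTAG
SRSF3: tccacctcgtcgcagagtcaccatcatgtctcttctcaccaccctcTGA
SRSF7: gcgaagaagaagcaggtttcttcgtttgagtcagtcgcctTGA
SRSF11: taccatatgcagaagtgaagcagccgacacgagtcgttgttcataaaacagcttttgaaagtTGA
TRA2B: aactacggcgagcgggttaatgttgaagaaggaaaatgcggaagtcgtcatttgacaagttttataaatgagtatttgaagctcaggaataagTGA
TRA2A, shorter exon: aacttcgagggcagaTGA
TRA2A, longer exon: aacttcgagggcagagttaatgttcgtgaa

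The distance from the entry junction to the stop codon differed widely between these exons. In the shorter TRA2A exon the stop is the first codon, 0 bases after entry. It follows 25 bases after entry in SRSF7, 31 in SRSF3, 47 in SRSF11, 78 in TRA2B, 141 in the longer TRA2A exon and 149 in SRSF6. In the SRSF4 run the stop comes 373 bases after entry, in the third exon. The premature stop leaves 12 of 282 codons of TRA2A with the shorter exon and 59 of 282 with the longer one, 38 of 288 in TRA2B and 124 of 164 in SRSF3.

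The K562 table held 7487508 uniquely mapped reads (74.0% of mapped reads) and that of HepG2 9927809 (82.7%), and the 10 genes took 0.393% of the unique K562 reads and 0.215% of those of HepG2. The labels fitted the tables: the 6 K562 markers, genes of red cells and blood, summed to 13228 reads in K562 and 1 in HepG2, with GATA1, RHAG, LMO2, TAL1 and GYPB at 0 in HepG2. The 6 HepG2 markers, genes of liver, summed to 225 reads in K562 and 867439 in HepG2, with HNF4A and TTR at 0 in K562. MTAP, known to be deleted in K562, had 0 reads in K562 and 249 in HepG2. Noncoding junctions, the class of most poison exon junctions, took 1.37% of unique K562 reads against 0.425% of unique HepG2 reads. Junctions in 5′ untranslated regions took 6.26% against 3.20%.

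The first comparison asked how the footprints of each gene compared between the 2 lines, as the ratio of junction reads of K562 to HepG2 on the TMM scale of edgeR. SRSF3 and SRSF7 were higher in K562 by more than 2-fold over their whole intervals, and the other 8 genes passed 2-fold in neither direction. Of 10956 genes with 20 or more reads, this rule counted 16.8% as higher in K562 and 21.9% as higher in HepG2, so 2 of 10 and 0 of 10 stand beside those shares. The median log2 ratio was 0.29 over the 10 genes and -0.01 over all genes tested.

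SRSF3, the smallest SR protein and a factor in mRNA export, had 8714 reads in K562 against 3805 in HepG2 (ratio 2.28, 2.19 to 2.37). SRSF7, the SR protein with a zinc knuckle, had 4709 reads in K562 against 2037 in HepG2 (ratio 2.30, 2.18 to 2.42). Both genes thus carried more than 2 reads in K562 for each one in HepG2 on this scale. Without its most-read junction, SRSF3 had a log2 ratio of 0.997 and its interval no longer lay past 2-fold. SRSF4, with a long arginine and serine domain, had 1172 reads in K562 against 723 in HepG2 (1.61, 1.47 to 1.77). TRA2A had 1555 and 1144 (1.35, 1.25 to 1.46), and SRSF2, a protein of nuclear speckles, had 188 and 135 (1.39, 1.11 to 1.74). These 3 were above 1 in K562 but below 2-fold.

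TRA2B, which binds purine-rich enhancers as TRA2A does, had 5145 reads in K562 against 4648 in HepG2 (ratio 1.10, 1.06 to 1.15). SRSF11, known to bind the splice site factor U2AF, had 2509 and 2373 (1.05, 0.995 to 1.11), and SRSF1, the founding member of the family, had 2268 and 2233 (1.01, 0.953 to 1.07). The intervals of SRSF11 and SRSF1 included a ratio of 1. SRSF5 had 1982 reads in K562 against 2644 in HepG2 (0.746, 0.704 to 0.791), and SRSF6 had 1174 and 1573 (0.743, 0.688 to 0.802). They were the only members with intervals below 1, and neither reached 2-fold. On a scale set by total reads, all genes had a median log2 ratio of 0.41, and K562 took 58.0% of the genes past 2-fold instead of 43.3%. The count of members past 2-fold was 2 in K562 and 0 in HepG2 on that scale too.

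**Figure D1:**
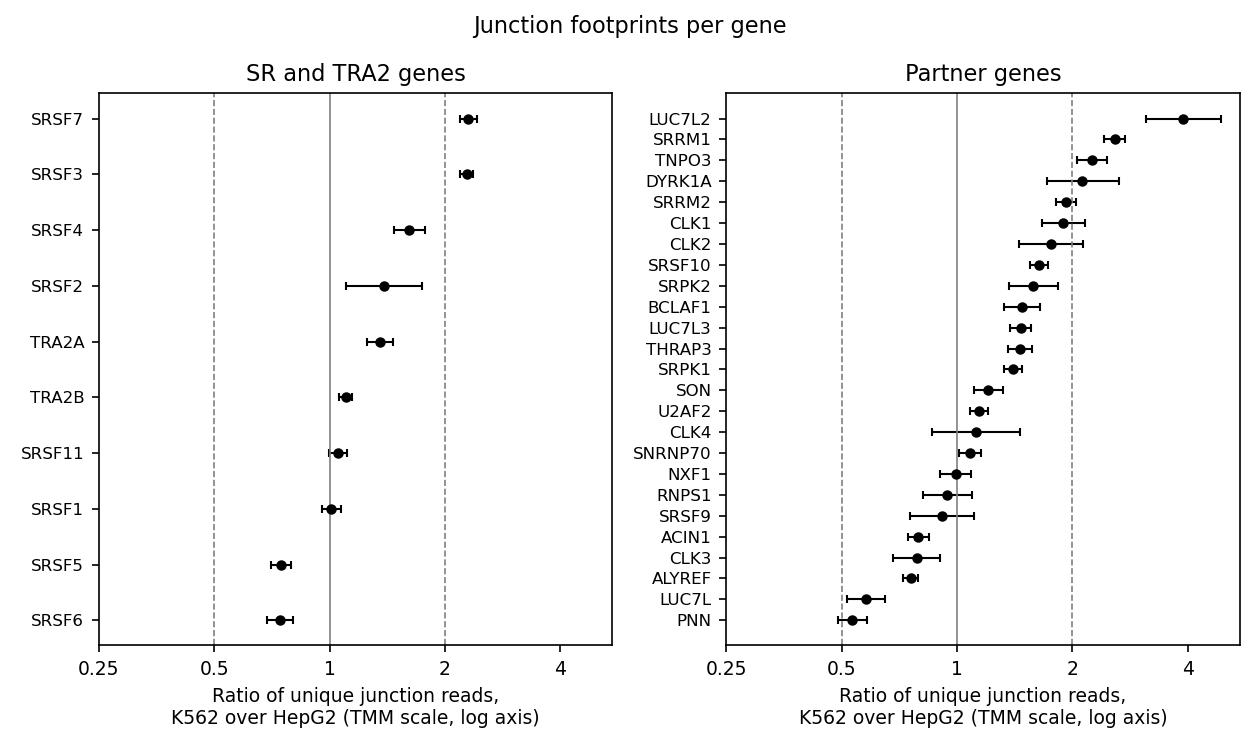
Ratio of unique junction reads, K562 over HepG2, on the TMM scale (log axis), for the 10 SR and TRA2 genes (left) and 25 partner genes (right). Points are ratios, bars exact 95% intervals, the solid line equality and the dashed lines 2-fold; SRSF3 and SRSF7 lie wholly past 2-fold, as do LUC7L2, SRRM1 and TNPO3.

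The partners of SR proteins were read from the same comparison. The list of 30 covers other SR-related proteins, the early splice site factors, the kinases that phosphorylate SR proteins and their transport factors, and 25 were measured. The 25 had a median log2 ratio of 0.49, and 3 of them were higher in K562 and 0 in HepG2. The 3 were SRRM1, a nuclear matrix splicing coactivator, with a ratio of 2.58 (2.42 to 2.75), TNPO3, the import receptor of SR proteins, with 2.25 (2.06 to 2.46), and LUC7L2, a U1 snRNP-associated factor, with 3.88 (3.12 to 4.88). The partners with the most reads did not pass 2-fold. The export adaptor ALYREF had 3599 reads in K562 against 4732 in HepG2, the kinase SRPK1 3467 and 2465, SRSF10 3620 and 2203, and the polypyrimidine tract factor U2AF2 2893 and 2527.

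Reads were unevenly spread over the junctions of a gene, and the pattern differed between lines in some. The 3 main coding junctions of SRSF1 had 974, 706 and 587 reads in K562, in transcript order, and 593, 772 and 866 in HepG2. The order of the 3 was thus reversed between the lines while the gene totals were close. In SRSF3, the junction after the second exon had 5541 reads in K562 against 2170 in HepG2, and the next coding junction, which skips the poison exon, 114 and 106. With multi-mapped reads, that junction had 768 reads in K562 and 441 in HepG2. In SRSF11, the pair of junctions in the 5′ untranslated region had 319 reads in K562 against 91 in HepG2, whereas its coding junctions had 2180 and 2276. Counting coding junctions alone gave SRSF11 a log2 ratio of -0.0689. SRSF5, which also acts on exonic enhancers, had 251 K562 reads against 365 HepG2 reads at the full-length junction chr14:69769252-69770466 and 1 read in each line at the shorter junction from the same donor.

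The second comparison asked what share of the reads at the entry and skipping junctions of a poison exon entered it. Footprints entered poison exons of several SR genes in both lines, and the share was higher in K562 at most of them. Entry reads were seen at 12 of the 18 entry junctions in K562 and at 8 in HepG2, and 5 had none in either line. At least 5 entry reads were seen at 8 exons of 7 genes in K562 and at 3 exons of 3 genes in HepG2. These are raw counts, not scaled for depth, and no share over all genes is given at this cut. The SR and TRA2 genes had 29416 unique reads in K562 against 21315 in HepG2. The part of this depth in the contrast of raw counts was not tested. The share was higher in K562 at 12 junctions and higher in HepG2 at 1. Those 12 include the 2 exons added by the second rule and a TRA2A junction compared on 3 reads in K562 and 2 in HepG2. No share over all genes was taken for this mixed set of 18. Of the 15 junctions of the first rule with 20 or more reads per line, 2 had a higher share in K562 with intervals that did not overlap and 0 had such a higher share in HepG2. Over all genes, the same rule counted 2.5% of 1878 such exons as higher in K562 and 0.905% as higher in HepG2. Under the second rule, 4 of 15 were higher in K562 and 0 in HepG2, against 2.88% and 1.49% of 1878 exons. That rule was chosen after the values were seen, and the 2 exons it added are among its 4. Its count is therefore no further evidence. Over all genes, exits under it were 54.0% of entry plus exit reads in K562 and 41.6% in HepG2. In members they were 5.13% and 7.69%, so the 2 sets of exons are unlike. Of the 1878 exons of the first rule, 599 had the larger share in K562, 376 in HepG2, and 903 were equal. Of the 15 member junctions of that rule, 9 were larger in K562, 1 in HepG2 and 5 equal. Entry reads were seen at 9 of those 15 in K562 and 5 in HepG2, beside 844 and 674 of the 1878.

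SRSF6, a regulator of alternative exons, and TRA2A had the largest shares in K562. The 268-base SRSF6 exon had 26 entry reads against 62 skipping reads in K562, a share of 29.5% (20.3 to 40.2). In HepG2 it had 12 entry and 100 skipping reads, 10.7% (5.66 to 18.0), and the intervals of the lines did not overlap. They overlapped at the 99% level. Measured at the exit junction, the difference of K562 minus HepG2 was 6.06 points, against 18.8 points at entry, and the intervals overlapped. That junction lies after the stop and had 4 reads in K562 and 0 in HepG2, so it cannot check the entry difference. The total reads of SRSF6 went the other way, with a ratio of K562 to HepG2 of 0.743, given above.

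TRA2A, a sequence-specific activator of splicing, had entry into 2 exons between its first and second coding exons. The longer one had 50 entry and 123 skipping reads in K562, a share of 28.9% (22.3 to 36.3). HepG2 had 5 and 85, or 5.56% (1.83 to 12.5), and the intervals did not overlap. At the exit junction they overlapped, with a difference of K562 minus HepG2 of 0.806 points, against 23.3 points at entry. In this frame the exit junction lies after the stop, and it had 1 read in K562 and 0 in HepG2, too few to check the entry difference. The shorter exon, which starts with the stop codon, had 10 entry reads against 173 that skip it in K562, or 5.46% (2.65 to 9.82). In HepG2 it had 2 against 90, or 2.17% (0.264 to 7.63), and the intervals overlapped. The reads that skip the shorter exon include those that enter the longer one. Among all junctions of that donor, the share of the longer exon was 27.3% in K562 and 5.43% in HepG2. A junction from the shorter into the longer exon had 2 reads in K562 and 1 in HepG2, too few to compare. Both exons are also annotated in the 5′ untranslated region of TRA2A transcripts with a later start codon, so their reads need not come from the frame shown.

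TRA2B, the paralog of TRA2A, had 35 entry and 303 skipping reads at its 276-base exon in K562, a share of 10.4% (7.32 to 14.1). HepG2 had 12 and 291, or 3.96% (2.06 to 6.82), with no overlap of the intervals. This exon overlaps the coding sequence of an annotated protein_coding transcript and so did not meet the first rule. Its entry junction is classed as coding, so its entry reads need not mark transcripts that decay. The exon met the second rule and the wider rule, and under the wider rule 3 of 14 member exons were higher in K562 and 0 in HepG2. Over all genes, the wider rule counted 74 of 2609 exons as higher in K562 and 56 as higher in HepG2.

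SRSF4 entered its run of 3 exons with 29 reads against 419 skipping reads in K562, 6.47% (4.38 to 9.16). In HepG2 it had 2 against 239, or 0.830% (0.101 to 2.97), and the intervals were apart. Its 2 other annotated poison exons, both within chr1:29159864-29160091, had 0 entry reads in both lines against 268 skipping reads in K562 and 180 in HepG2. Taken as up to 3 counts, this allows shares of up to 1.12% in K562 and 1.67% in HepG2.

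**Figure D2:**
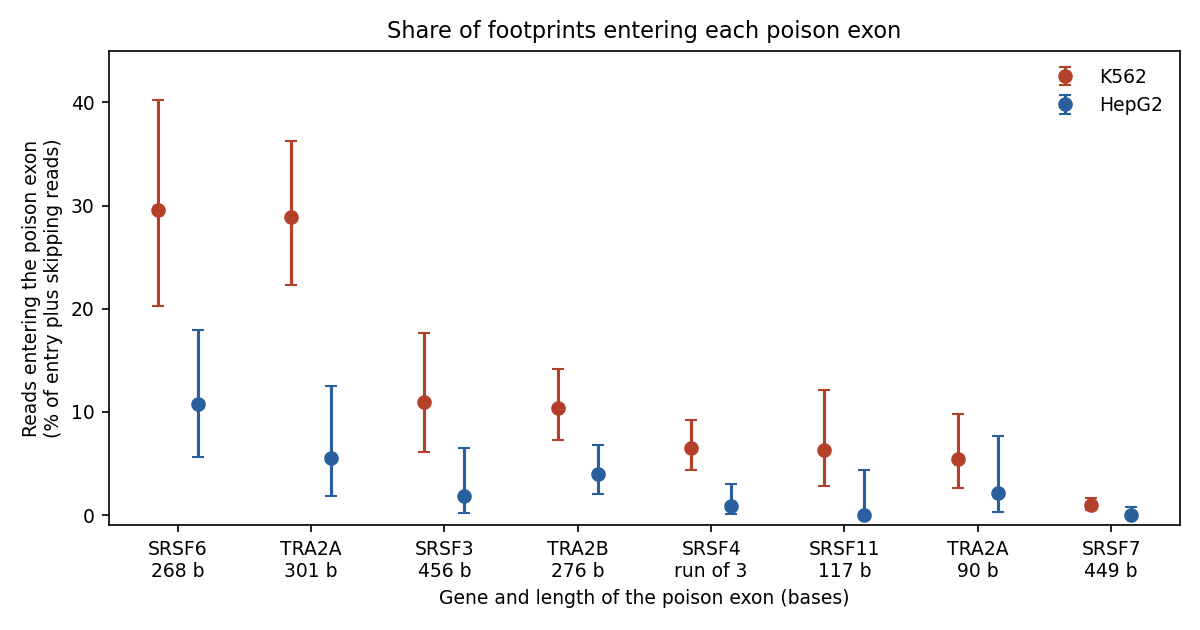
Share of unique footprints entering each poison exon, in percent of entry plus skipping reads, in K562 (left point of each pair) and HepG2 (right point), for the 8 exons with 5 or more entry reads in K562. Bars are exact 95% intervals; they are apart for SRSF6, the 301-base TRA2A exon, TRA2B and SRSF4, and the choice of exons by K562 entry reads favors a higher share in K562.

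SRSF3, SRSF7 and SRSF11 entered their poison exons with higher shares in K562, but the intervals of the lines overlapped. The 456-base exon of SRSF3 had 14 entry and 114 skipping reads in K562, or 10.9% (6.11 to 17.7), and 2 and 106 in HepG2, or 1.85% (0.225 to 6.53). Most reads of the SRSF3 skipping junction were not uniquely mapped. With all mapped reads it had 768 in K562 and 441 in HepG2, and the share was 1.79% (0.982 to 2.99) in K562 and 0.451% (0.0547 to 1.62) in HepG2. The level of the SRSF3 share therefore depends on the read column by more than its interval. The other SRSF3 poison exon, at chr6:36598429-36598526, had 0 entry reads in both lines against 5541 skipping reads in K562 and 2170 in HepG2, which allows shares of up to 0.0541% in K562 and 0.138% in HepG2.

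SRSF7 had 11 entry reads into its 449-base exon against 1156 skipping reads in K562, 0.943% (0.471 to 1.68). HepG2 had 0 against 476, which allows up to 0.630%. A second entry site of that exon had 2 reads in K562 and none in HepG2 (0). The 69-base exon had 0 in both against 463 skipping reads in K562 and 233 in HepG2. SRSF11 had 8 entry and 118 skipping reads at its 117-base exon in K562, 6.35% (2.78 to 12.1), and 0 and 83 in HepG2, which allows up to 3.61%. The other 3 SRSF11 exons had 1 entry read or none in each line. The 109-base one, with 0 entry reads in K562 and 1 in HepG2, was the single junction with a larger share in HepG2.

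The wider tables moved in the same direction as these shares. Reads at noncoding junctions made up 1.37% in K562 and 0.425% in HepG2, and junctions of long noncoding genes 0.742% and 0.147%. The part of this in the higher K562 shares was not tested. mRNA levels are not analysed here, so more poison exon mRNA and more footprints per such mRNA cannot be told apart.

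The third comparison set exit against entry. Footprints entered the poison exons of the SR and TRA2 genes and were rarely found leaving them. Over the 16 junctions of the first rule, exit junctions had 11 reads and entry junctions 126 in K562, so exits were 8.03% (4.08 to 13.9) of both. In HepG2 there were 4 exit and 23 entry reads, 14.8% (4.19 to 33.7). With the upstream donor in coding sequence, which leaves 14 junctions, exits were 7.58% (3.69 to 13.5) in K562 and 12% (2.55 to 31.2) in HepG2.

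Poison exons of other genes also had fewer exit than entry reads, where the upstream donor was coding. By the first rule, which takes any donor, exits were 73.9% of both in K562 and 82.2% in HepG2 over all genes. With a coding donor, exits made up 27.1% (26.3 to 28.0) of 7512 entry plus 2796 exit reads in K562, over all genes. In HepG2 they were 27.8% (26.7 to 29.0) of 4242 entry and 1636 exit reads. Exon by exon, outside the SR and TRA2 genes, the median exit share was 15.01% over 98 exons in K562, with quartiles of 3.50% and 56.5%, and 13.4% over 50 exons in HepG2, with quartiles of 2.04% and 46.3%. The summed shares of the SR and TRA2 genes lay within those quartiles. Coding cassette exons, which a ribosome reads through, had medians of 53.7% over 3481 exons in K562 and 55.9% over 3648 in HepG2. The 4 coding cassette exons of the SR and TRA2 genes had an exit share of 49.0% (47.3 to 50.7) in K562 and 57.7% (55.6 to 59.8) in HepG2. These 4 exons lie in SRSF4, SRSF7 and TRA2B, and single exons were uneven: the 36-base SRSF7 exon had 702 entry and 325 exit reads in K562, and the 134-base TRA2B exon 291 and 526 in HepG2.

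**Figure D3:**
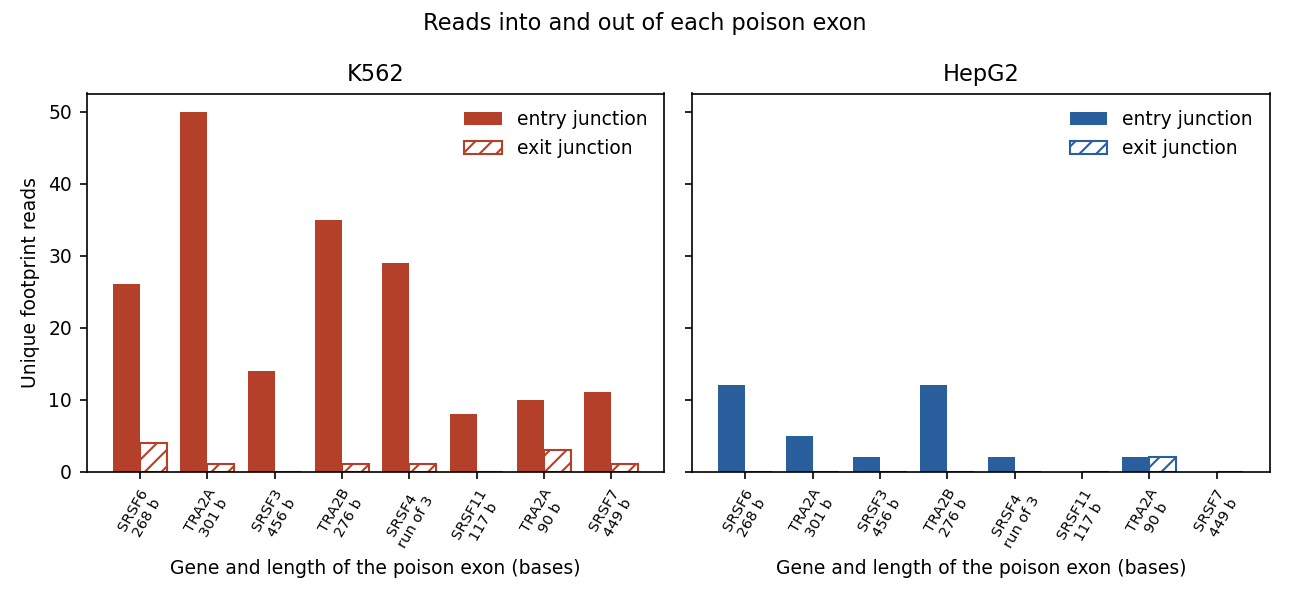
Unique reads at the entry (filled) and exit (hatched) junctions of the 8 poison exons with 5 or more entry reads in K562, in K562 (left) and HepG2 (right). Exit reads are at most 4 per exon in K562 and 2 in HepG2; the choice of exons by K562 entry reads favors entry there.

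The few exit reads fell on a few exons. The SRSF6 exon had 26 entry and 4 exit reads in K562 and 12 and 0 in HepG2. Its stop lies 116 bases before the exon's end. The longer TRA2A exon had 50 and 1 in K562 and 5 and 0 in HepG2, and the TRA2B exon 35 and 1 in K562 and 12 and 0 in HepG2. The shorter TRA2A exon was the exception, with 10 entry and 3 exit reads in K562 and 2 and 2 in HepG2. It is also annotated in a 5′ untranslated region, as given above. The SRSF4 run had 29 entry reads and 1 exit read from its first exon in K562 and 2 and 0 in HepG2, although its stop lies in the third exon. SRSF3 had 14 entry reads and no exit read in K562, and 2 and 0 in HepG2.

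**Figure D4:**
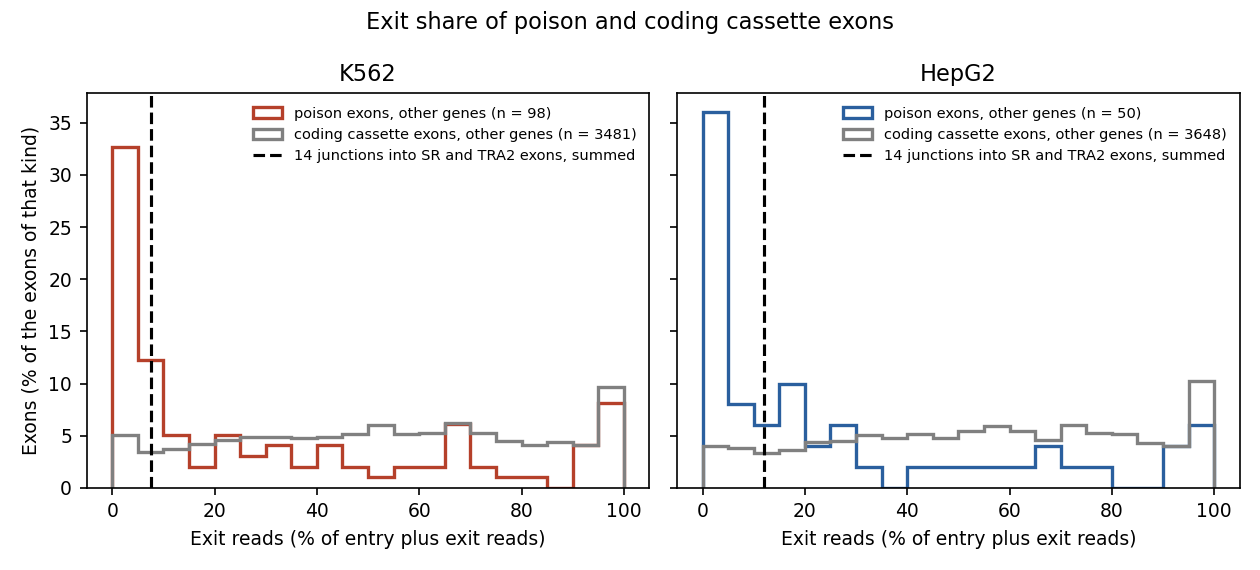
Distribution of the exit share, in percent of entry plus exit reads per exon, for poison exons with a coding donor (colored) and coding cassette exons (grey) of other genes with 20 or more such reads, in K562 (left) and HepG2 (right). The dashed line is the sum over 14 junctions into exons of the SR and TRA2 genes, at 7.58% in K562 and 12% in HepG2; it is a sum over junctions and lies within the quartiles of the single exons in both lines.

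Splicing after the stop codon is another known route to decay for SR genes. Only SRSF2 had reads at junctions classed as lying in a 3′ untranslated region, and the other 9 genes had 0 in both lines. The SRSF2 junction at chr17:76735159-76736153, 7 bases after the stop codon, had 87 of the 188 SRSF2 reads in K562, 46.3% (39.0 to 53.7). In HepG2 it had 80 of 135, 59.3% (50.5 to 67.6), and the intervals overlapped. It is an intron of an annotated protein_coding transcript, so its reads need not come from a decay form. The single SRSF2 coding junction had 98 reads in K562 against 54 in HepG2. The cassette exon of 104 bases, inside the intron after the stop codon, had 2 entry reads in K562 and 0 in HepG2. Its exit junction, 111 bases after the stop codon, had 1 read in each line. A junction of SRSF1 that starts 127 bases after its stop codon had 0 reads in K562 and 2 in HepG2.

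Small shifts of splice sites and coding cassettes were compared last. They were chosen after the values were seen. At 7 pairs of sites up to 9 bases apart in these genes, 0 had a higher share of the longer intron in K562 and 2 in HepG2, against 2.55% and 2.14% of 746 pairs over all genes. Both were pairs of acceptors 3 bases apart in the TRA2 genes, a spacing that adds or removes 1 codon. In TRA2A the longer intron had 6 of 280 reads in K562, 2.14% (0.790 to 4.61), against 24 of 310 in HepG2, 7.74% (5.02 to 11.3). In TRA2B it had 4 of 811 in K562, 0.493% (0.135 to 1.26), against 15 of 460 in HepG2, 3.26% (1.84 to 5.32). Both TRA2 genes thus used the downstream acceptor more in HepG2, at low levels.

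The other pairs did not differ beyond their intervals. The acceptor pair of SRSF11 before its start codon used the longer intron for 72.4% of its K562 reads and 81.3% of its HepG2 reads, with intervals of 67.2 to 77.2 and 71.8 to 88.7. The pair in its coding sequence had 27.9% (22.0 to 34.3) in K562 and 21.5% (15.4 to 28.6) in HepG2. A pair of SRSF5 had 5.15% in K562 and 3.91% in HepG2, and the donor pair of SRSF7 1.49% and 2.10%. The 36-base coding exon of SRSF7 was skipped in 39 of 741 reads in K562, 5.26% (3.77 to 7.12), and in 15 of 230 in HepG2, 6.52% (3.70 to 10.5). The 134-base exon of TRA2B was skipped in 12 of 315 K562 reads and 8 of 299 HepG2 reads, and its 60-base exon in 0 of 619 and 0 of 398. The 90-base exon of SRSF4 was skipped in 1 of 43 K562 reads and 1 of 22 HepG2 reads.

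**Figure D5:**
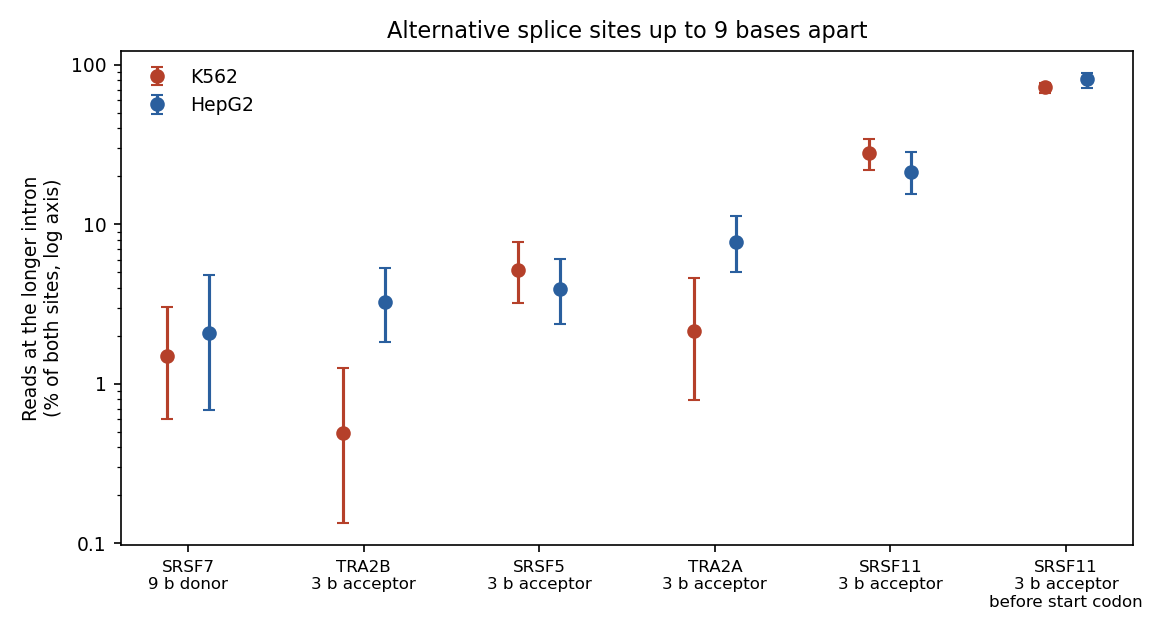
Share of reads at the longer intron, in percent of both sites on a log axis, for pairs of splice sites up to 9 bases apart, in K562 (left point of each pair) and HepG2 (right point). Bars are exact 95% intervals; they are apart for TRA2B and TRA2A, both higher in HepG2, and a pair of SRSF5 with 0 reads at the longer intron in both lines is not drawn.

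Poison exons of the partner genes had entry reads in both lines. By the first rule, 35 entry junctions of partners summed to 41 entry reads in K562 and 35 in HepG2, and 0 of the 20 compared had intervals that were apart. By the second rule, 36 entry junctions summed to 249 entry reads in K562 and 251 in HepG2. Of the junctions, 21 were compared, 2 had a higher share in K562 and 1 in HepG2, and 3 had 20 or more entry reads in a line. SRPK1, a cytoplasmic SR protein kinase, had 78 entry and 926 skipping reads in K562, 7.77% (6.19 to 9.60), against 21 and 648 in HepG2, 3.14% (1.95 to 4.76). RNPS1, a protein of the exon junction complex, had 75 and 105 in K562, 41.7% (34.4 to 49.2), against 156 and 39 in HepG2, 80.0% (73.7 to 85.4). The SRPK1 share was higher in K562 and the RNPS1 share higher in HepG2. DYRK1A, a kinase of SR proteins, had 20 entry and 0 skipping reads in K562 and 7 and 0 in HepG2. By the first rule, 0 partner junctions had 20 or more entry reads in a line, so these 3 met the second rule alone. That rule allows overlap with coding sequence, so their entry reads need not mark transcripts that decay.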

How the data were processed

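Ribosome profiling of 2 K562 and 2 HepG2 samples is deposited as 1 junction table per line, pooled over its samples, per the labels. Each table gives raw counts of reads per splice junction as deposited, for uniquely mapped and for all mapped reads, per the file headers. cutadapt, Bowtie2 and STAR 2.6.0 and GRCh38 are named in the submitters' processing notes. How junctions were counted, and on which annotation, is not given in the sources used here. Signal tracks are not analysed here.

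The 10 genes and the partner list were chosen with earlier results of these data known. Junctions were matched to the introns of GENCODE release 29, and frames and stops were read from its transcripts with Python 3.11.15. Uniquely mapped reads were summed per gene, leaving out 6033 junctions of more than 1 gene. Genes needed 20 reads over both tables, and exons 20 entry plus skipping reads in each. TMM factors came from edgeR 4.0.16 (R 4.3.3), and intervals from the exact Clopper-Pearson method (SciPy 1.17.1). A gene was counted where its whole interval lay past 2-fold, and a share where the intervals of the lines did not overlap. A count of 0 is said to allow up to 3 counts of the total, which is below the upper limit of the exact interval. Overlap was judged on the exact intervals. Without molecular identifiers, reads are not independent molecules, so intervals and floors are for counting error. Both methods were tested on simulated counts that held counting error alone, so the test cannot show how they behave with variation between samples. Alternatives included DESeq2 1.42.0 size factors, other minimums, 99% intervals and other exon rules. By rule, all 10 genes and each of their poison exons were described, with the 4 most-read partners, every partner past 2-fold, and partner exons of 20 entry reads. Other genes named serve as markers of the lines.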

Additional observations from a re-analysis of the deposited data

Results flagged for a closer look

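SRSF3 and SRSF6 had many reads outside the comparisons, since over 10% of their junction reads were not uniquely mapped. SRSF3 had 3406 multi-mapped reads in K562 and 1277 in HepG2, so that 71.9% of its reads in K562 and 74.9% in HepG2 were unique. SRSF6 had 250 multi-mapped reads in K562 and 358 in HepG2, with 82.4% and 81.5% unique. At the SRSF3 junction that skips the poison exon, 768 mapped reads in K562 included 114 unique ones, and 441 in HepG2 included 106. The source of these multi-mapped reads was not tested.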

How the results depend on the processing

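No paired analysis was possible because the junction columns are pooled over the samples of a line and carry no replicate numbers, and leaving out single samples was not run for the same reason. Without the most-read junction, 1 of the 10 genes was higher in K562. The log2 ratio of SRSF1 turned to -0.0158 with all mapped reads and to -0.30 without its most-read junction, and that of SRSF11 to -0.0689 with coding junctions alone. With 99% intervals, 1 of 15 member exons differed, and over all genes 21 of 1878 exons were higher in K562 and 11 in HepG2. By the exit junction, 0 of 15 member exons were higher in K562, beside 44 of 1964 exons over all genes, and 30 of 1964 were higher in HepG2. SRSF6 and the longer TRA2A exon lost their calls there, at 6.06 and 0.806 points. Their exit junctions lie after the stop and had at most 4 reads in a line, so this setting cannot check their entry differences. The differences of SRSF2 and of the shorter TRA2A exon turned to -0.10 and -0.47 points by the exit junction. Over all genes, an in-frame stop or frame shift gave 74 exons in K562 and 56 in HepG2, of 2609. Decay transcripts alone gave 18 and 3 of 870, and coding donors 29 and 5 of 1417. Runs with an in-frame stop gave 4 of 15 member exons and 54 of 1878 exons over all genes in K562, and 0 and 28 in HepG2. The SRSF3 share in K562 was 1.79% with all mapped reads. The other 93 values of main results kept their call or stayed within their interval or within 1.5 times the count. Coding-donor, run and coding-junction alternatives were chosen after seeing the data. The cause was not tested where no reason is given. In HepG2, 3 member exons had 5 or more entry reads, and the intervals of the other exons rest on fewer.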
